A study of Rattus norvegicus with 36 samples.

Results

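Glucocorticoid receptor (GR) signal in the hippocampus differed between untrained rats given corticosterone and vehicle at 15 of the 4968 regions tested, and was higher after corticosterone at each of the 15. These calls rest on a model that also held trained rats, and the treatments were on separate sequencing lanes. The comparison uses 8 of the 36 samples of the series: 4 GR ChIP-seq libraries of rats given corticosterone and 4 of rats given vehicle, chosen by antibody, training and treatment as labelled. All came from male Sprague-Dawley rats with no training, and each library was made from the chromatin of 4 hippocampi pooled from 2 rats, so that a replicate is a pool. Nothing in the labels gives the dose, the time after treatment, the age of the rats or the training procedure. The same table holds 8 GR libraries of trained rats given vehicle or corticosterone, which entered the statistical model and are described below for the same regions. Of 5307 listed GR regions, 4968 passed a filter on low counts. The 339 regions that did not pass were narrow, with a median width of 251 bp against 392 bp for all listed regions.

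GR is a nuclear receptor that stays in the cytoplasm without ligand and, once bound by a glucocorticoid such as corticosterone, enters the nucleus and binds DNA at glucocorticoid response elements or through other factors. Corticosterone is the main glucocorticoid of the rat, and the hippocampus is known for its high content of both GR and the mineralocorticoid receptor. CREB is a DNA-binding activator that neurons phosphorylate upon cAMP and calcium signals. Its phosphorylated form, pCREB, was immunoprecipitated from the other part of the same chromatin, and its regions form a separate list of 14722. Chromatin was taken from whole hippocampus, so that a change in binding per cell and a change in the share of cells that bind cannot be told apart. No genes are named, since the gene tables used here belong to another genome build than the coordinates (rn6), and the tissue could therefore not be checked against marker genes.

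The 8 libraries were unequal in ways that touch each result. Vehicle libraries A to D held 79654, 55254, 118842 and 112160 reads in GR regions, and corticosterone libraries A to D held 111884, 120812, 105690 and 139482. The ratio of geometric means, corticosterone to vehicle, was 1.36, a difference within the spread of libraries (exact two-sided permutation test, p = 0.2, smallest possible 0.0286, n = 4 and 4). Vehicle A and B and corticosterone B had few peak calls: 196, 666 and 513 GR regions carried a call in them, against 2249 to 3926 in the other 5. Mitochondrial regions took 22.9% of the reads of corticosterone B and 8.88% to 13.4% of those of the other 7. Among the regions called in corticosterone B, its own count column was not the highest, that of vehicle B was, whereas for each of the other 7 libraries the own column was highest. The vehicle libraries were labelled with lane 5 and the corticosterone libraries with lane 6, so that lane and treatment cannot be told apart. The plot of library properties shows both groups beside the trained rats.

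**Figure D1:**
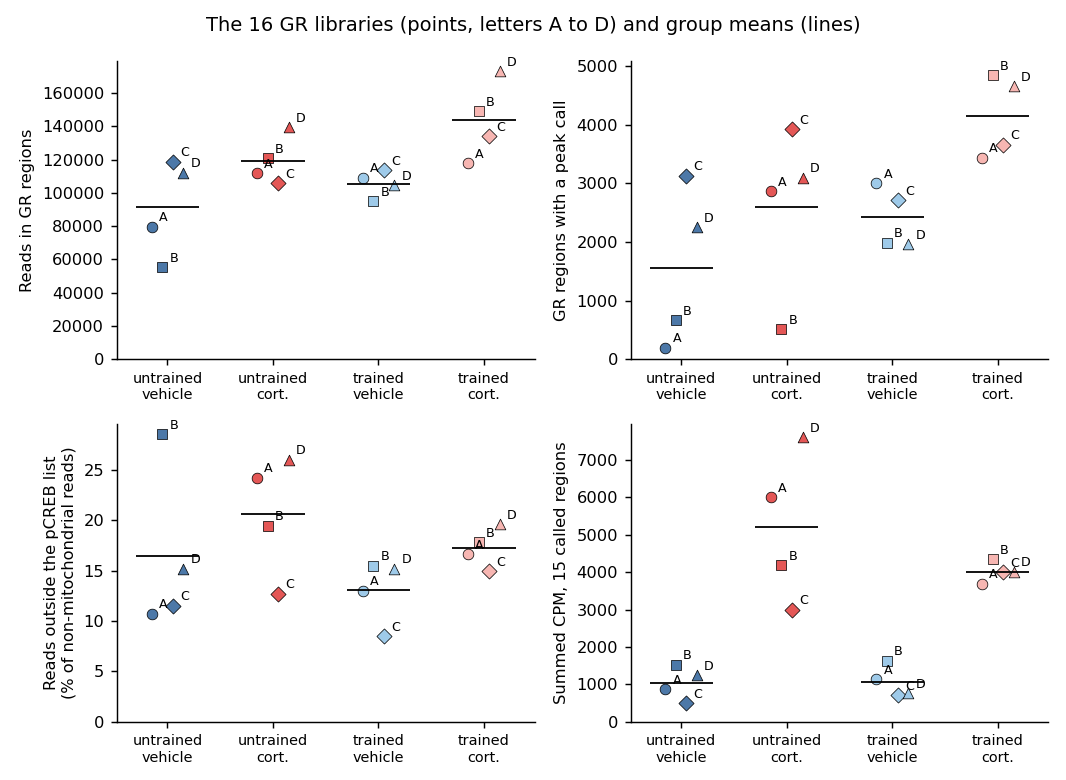
Reads in GR regions, regions with a peak call, percent of non-mitochondrial reads outside the pCREB list and summed CPM of the 15 called regions (vertical axes) in each of the 16 GR libraries by group (horizontal axis; cort. is corticosterone). Points are libraries A to D and lines are group means. In untrained rats the groups overlap in the first 3 measures, while the summed CPM of the 15 regions is at most 1520 in vehicle and at least 2996 in corticosterone libraries, a separation that the choice of these regions by this contrast sets.

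A region was called where edgeR's quasi-likelihood test gave a Benjamini-Hochberg adjusted p under 0.05 over all regions tested. The 15 regions called higher were 0.302% of those tested, and the count called lower was 0 (0%). DESeq2 on the same counts called 24 higher (0.483%), including each of the 15, and 0 lower. At an unadjusted p under 0.05, edgeR put 318 regions higher and 194 lower, and the smallest adjusted p of a lower region was 0.119. The median log2 fold change of all tested regions was -0.06, with 25% below -0.33 and 25% above 0.29. Across the 14 called regions with more than 3 vehicle reads in sum, the fitted rise ran from 3.17-fold to 16.4-fold. The count of calls leaned on the model: a fit of the 8 untrained libraries alone called 0 regions by edgeR (363 at an unadjusted p under 0.05), with log2 fold changes of 1.66 to 4.18 and adjusted p of 0.0878 to 0.367 at the 15 regions. DESeq2 on these 8 libraries called 18 higher and 1 lower, and 14 of the 15 regions were among them.

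The fitted rise was highest at 3 regions, in each of which at least 1 vehicle library held 0 reads. At chr10:59884799-59885334, normalised signal (CPM, edgeR's counts scaled to library size) was 12.2, 71.2, 0 and 135 in vehicle libraries A to D and 711, 521, 653 and 1556 in corticosterone libraries A to D. All 4 corticosterone libraries were far above all 4 vehicle libraries, and corticosterone D held 214 reads there where vehicle C held 0. A count of 0 allows up to 3 reads, which are 23.8 CPM in vehicle C. The log2 fold change was 4.04 (SE 0.61, edgeR adjusted p = 0.00319). At chr15:37409719-37409969 the vehicle libraries held 0, 0, 2 and 0 reads and the corticosterone libraries 17, 12, 6 and 22. With 2 vehicle reads in sum the ratio of read rates was 21.2, and its exact 95% Poisson interval of 5.61 to 179 covers counting error only. Its edgeR adjusted p was 0.00714. The third, chr17:46727874-46728139, had 12.2, 47.5, 0 and 20.8 CPM after vehicle and 180, 104, 43.6 and 225 CPM after corticosterone. Here corticosterone C, with 5 reads, lay below vehicle B, with 2 reads, so the groups overlapped by that pair. The log2 fold change was 3.16 (SE 0.68, edgeR adjusted p = 0.0359).

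The smallest adjusted p belonged to chr10:16942351-16942910, a 560 bp region outside the pCREB list. It had 36.6, 71.2, 31.8 and 125 CPM in vehicle libraries A to D and 420, 375, 200 and 662 CPM in corticosterone libraries A to D. Every corticosterone library exceeded every vehicle library, and the mean rose from 66.2 ± 43.0 to 414 ± 190 CPM (SD, n = 4), a log2 fold change of 2.68 (SE 0.40, edgeR adjusted p = 0.00201). At chr17:5971448-5971815, vehicle libraries had 24.4, 23.8, 31.8 and 104 CPM and corticosterone libraries 454, 333, 157 and 567 CPM. Vehicle D stood above the other 3 vehicle libraries and still below the lowest corticosterone library. The log2 fold change was 2.93 (SE 0.49, edgeR adjusted p = 0.00567), and without vehicle C the adjusted p was 0.0519.

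At chr15:43782823-43783162 the vehicle values were close together, at 48.8, 47.5, 23.8 and 41.7 CPM, and the corticosterone values were 317, 115, 166 and 313 CPM. The groups did not overlap, although corticosterone B and C reached less than the level of A and D. The log2 fold change was 2.57 (SE 0.42, edgeR adjusted p = 0.00319). A smaller but even rise was measured at chr11:77467099-77467439, from 60.9, 47.5, 79.5 and 83.4 CPM to 274, 292, 192 and 356 CPM. Each corticosterone library was above each vehicle library, with a log2 fold change of 1.95 (SE 0.32, edgeR adjusted p = 0.00319).

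The pCREB list overlapped 2 of the 15 regions. At chr11:31424285-31424773, vehicle libraries had 122, 166, 47.7 and 62.5 CPM and corticosterone libraries 351, 250, 253 and 422 CPM. The groups did not overlap, and the log2 fold change of 1.86 (SE 0.34) had an edgeR adjusted p of 0.00714. The call was lost without vehicle C, with an adjusted p of 0.12. At chr15:58884552-58885070 the values were 122, 143, 71.5 and 188 CPM after vehicle and 900, 437, 261 and 909 CPM after corticosterone. All corticosterone libraries were higher, with A and D above B and C, and the log2 fold change was 2.28 (SE 0.49, edgeR adjusted p = 0.0472).

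Of the other 6 regions, 3 had separate groups. chr16:48053796-48054088 had 97.5, 119, 63.6 and 104 CPM in vehicle and 386, 271, 192 and 545 CPM in corticosterone libraries (log2 fold change 1.93, SE 0.39, edgeR adjusted p = 0.0259). At chr3:2251775-2252102 the values were 36.6, 119, 7.95 and 52.1 against 386, 146, 218 and 320 CPM (log2 fold change 2.64, SE 0.54, adjusted p = 0.035). chr12:24733008-24733586 had 97.5, 143, 31.8 and 72.9 against 266, 219, 183 and 502 CPM (log2 fold change 1.96, SE 0.44, adjusted p = 0.0493). In each of these, vehicle B was the highest vehicle library and vehicle C the lowest.

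In the remaining 3 regions the groups overlapped, in each by vehicle B lying above corticosterone C. At chr8:48415896-48416281 the values were 122, 285, 63.6 and 146 CPM after vehicle and 480, 521, 253 and 494 CPM after corticosterone (log2 fold change 1.67, SE 0.37, edgeR adjusted p = 0.0472). chr2:31133251-31133561 had 12.2, 71.2, 7.95 and 62.5 against 266, 146, 61 and 313 CPM, and vehicle D also lay above corticosterone C (log2 fold change 2.57, SE 0.53, adjusted p = 0.0259). At chr17:40485671-40486256 the values were 60.9, 166, 23.8 and 52.1 against 463, 333, 113 and 262 CPM (log2 fold change 2.24, SE 0.46, adjusted p = 0.0298). Each overlap involved corticosterone C. Leaving it and vehicle B aside thus separates the groups at each of the 3 by construction and adds no support.

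**Figure D2:**
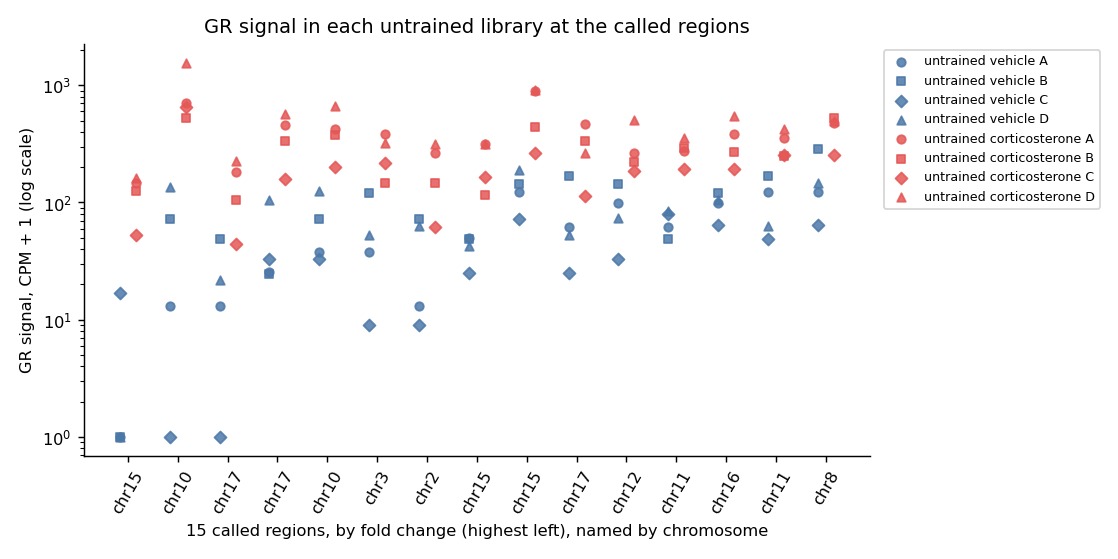
GR signal (CPM + 1, log axis) of the 8 untrained libraries at the 15 called regions, ordered by fitted fold change and named by chromosome. Points are single libraries, blue for vehicle and red for corticosterone, with a shape for each letter. Corticosterone C is the lowest corticosterone library at 11 of the 15 regions, vehicle C the lowest vehicle library at 12, and the groups are apart at 11.

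Across the 15 regions the order of the libraries within a group was uneven. Corticosterone D was highest of its group at 11 regions, A at 3 and B at 1, and the lowest was C at 11 and B at 4. Corticosterone B, with few peak calls, reached 0.432 to 1.27 times the mean of the other 3 corticosterone libraries (median 0.724), and it carried a call at 10 of the 15. Vehicle B, also with few calls, was the highest vehicle library at 8 regions, D at 5, and A and C at 1 each. Vehicle C had 3128 regions with a call in all, but a call at 0 of the 15. Depth was low on the vehicle side: 49 of the 60 vehicle values at these regions were counts under 10 reads, and the highest was 18, against 5 to 214 reads in corticosterone libraries.

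Regions on either side of the threshold had like values. The last region called, chr12:24733008-24733586, had an edgeR adjusted p of 0.0493, and the first not called, chr1:73760445-73760846, had one of 0.0525. The latter went from 36.6, 95, 0 and 93.8 CPM to 386, 250, 122 and 320 CPM, with separate groups and a log2 fold change of 2.46. Next came chr15:106543141-106543691 (log2 fold change 1.21, adjusted p = 0.0525), chr8:72428219-72428545 (2.00, 0.0526), chr3:162584796-162585036 (1.73, 0.0603) and chr9:62313386-62313692 (2.74, 0.0655). DESeq2 called each of these 5, and also chr7:59260978-59261383 (edgeR log2 fold change 2.74, adjusted p = 0.119). DESeq2 called 9 regions that edgeR did not.

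No region passed the test for a loss of GR signal. The 3 lower regions with the smallest p, each at an edgeR adjusted p of 0.119, overlapped the pCREB list. At chr5:165816365-165816876, vehicle libraries had 183, 285, 207 and 156 CPM and corticosterone libraries 68.5, 62.5, 69.7 and 65.4 CPM (log2 fold change -1.57). The groups were apart, and the corticosterone libraries were close to each other, with 6 to 9 reads each. At chr15:23494441-23494751 the values were 207, 166, 135 and 177 against 51.4, 125, 52.3 and 50.9 CPM (-1.31). The third was chr15:4415138-4415503, with 146, 71.2, 199 and 240 against 25.7, 41.7, 105 and 65.4 CPM (-1.53), where corticosterone C exceeded vehicle B.

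Without any model, all 4 corticosterone libraries lay above all 4 vehicle libraries at 70 of the tested regions (1.41%), and below them at 109 (2.19%). The 70 include 11 of the 15 called regions. The balance depended on scaling: with total-count scaling in place of TMM the counts were 116 above and 38 below. TMM scaling from pCREB-overlapping regions alone moved the median log2 fold change of all regions from -0.06 to 0.04, and called 7 regions, each higher. The 15 log2 fold changes kept their sign under each alternative fit.

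Fold changes differed between regions inside and outside the pCREB list. The GR list itself depends on signal: 1887 regions had calls in at least 3 untrained corticosterone libraries and 321 in at least 3 untrained vehicle libraries. The 316 tested regions with 3 or 4 such corticosterone calls and 0 vehicle calls had a median log2 fold change of 0.70. Among tested regions that trained calls alone would list, the median was 0.62 outside and -0.15 inside. How far listing adds to the difference was not tested. Of all tested regions 4064, or 81.8%, shared 1 bp or more with a pCREB region (exact 95% Clopper-Pearson interval 80.7% to 82.9%), whereas of the 15 called regions 2 did, or 13.3% (1.66% to 40.5%). The intervals cover counting error only, and the share did not change when at least 50% of the region had to be covered (81.7% and 13.3%). The 904 tested regions outside the pCREB list had a median log2 fold change of 0.61, 80.8% of them were above 0, and 249 were above 1. Among the 4064 inside the list the median was -0.13, 36.1% were above 0, and 44 were above 1. The median inside depended on scaling: it was -0.03 with TMM from pCREB-overlapping regions, -0.03 without mitochondrial regions and -0.08 with total-count scaling, while the median outside was 0.70 under each of the 3. By edgeR 13 of 904 (1.44%) were called outside and 2 of 4064 (0.0492%) inside. Regions where all 4 corticosterone libraries lay below all 4 vehicle libraries were in the list in 106 of 109 cases, and regions where they lay above in 34 of 70.

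**Figure D3:**
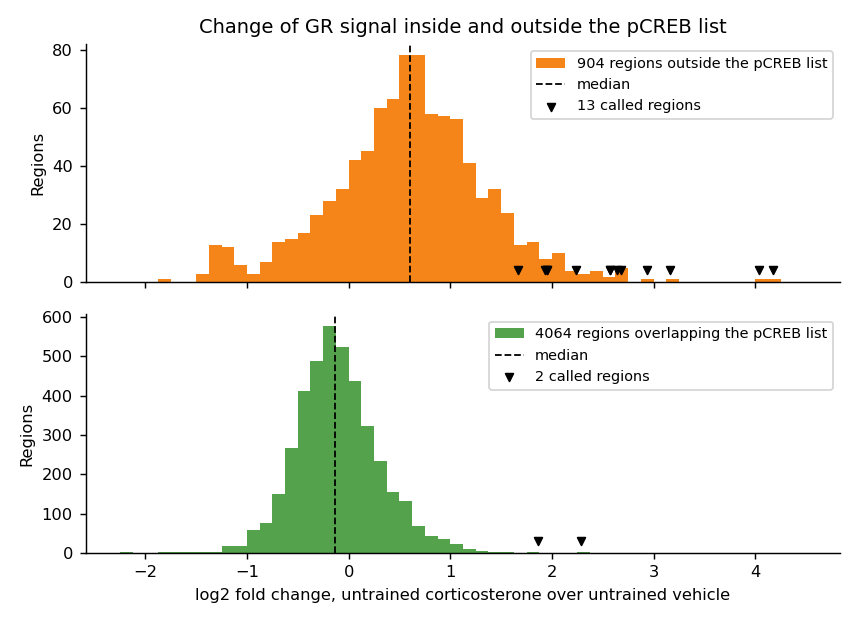
Number of tested regions (vertical axis) by log2 fold change of corticosterone over vehicle in untrained rats (horizontal axis), for 904 regions outside the pCREB list (upper panel) and 4064 inside it (lower panel). Dashed lines are medians (0.61 and -0.13) and triangles mark called regions (13 and 2). The small group near -1.3 in the upper panel holds the regions of 1 locus on chromosome 9.

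The shift outside the pCREB list was not even across libraries. Set against the mean of the vehicle libraries on the scale of log2(CPM + 1), the median of the regions outside the list was -0.24, 1.37, -0.92 and 0.22 in vehicle libraries A to D and 0.91, 0.77, 0.15 and 1.33 in corticosterone libraries A to D. Vehicle B was the highest of the 8, and the groups overlapped. Vehicle B was also highest in the share of non-mitochondrial reads outside the list, which was 10.7%, 28.5%, 11.5% and 15.2% after vehicle and 24.2%, 19.4%, 12.7% and 26% after corticosterone (difference of means within the spread, exact two-sided permutation test, p = 0.457, n = 4 and 4). Single vehicle libraries moved the median log2 fold change outside the list both ways: it was 1.17 without vehicle B and 0.32 without vehicle C. Without all 3 libraries with few peak calls it was 1.18. At the 15 called regions, by contrast, the medians on this scale were -0.03, 0.91, -0.88 and 0.33 for vehicle and 2.93, 2.12, 1.52 and 2.97 for corticosterone, with vehicle B again the highest of its group; these regions were chosen by that difference. Regions outside the list were narrower than those inside (median 323 against 431 bp) and less precisely measured (median SE of the log2 fold change 0.52 against 0.36).

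The pCREB regions beneath the 2 overlapping GR regions were measured in the pCREB libraries of the same pools. At chr11:31424442-31424758, pCREB signal was 21.5 ± 12.0 CPM after vehicle and 36.0 ± 5.82 CPM after corticosterone (SD, n = 4), a log2 fold change of 0.66 (SE 0.37, edgeR adjusted p = 1.00). At chr15:58884560-58884920 it was 33.7 ± 13.1 and 57.8 ± 19.8 CPM, a log2 fold change of 0.84 (SE 0.32, edgeR adjusted p = 1.00, unadjusted p = 0.0117). Neither passed the test. Over all 14553 pCREB regions tested the same contrast called 0 (0%) by edgeR and 0 by DESeq2, with 392 at an unadjusted p under 0.05.

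The called regions fell on 9 chromosomes. Chromosomes 15 and 17 held 3 each, with 2.96% and 3.44% of the tested regions. Chromosomes 10 and 11 held 2 each, with 6.68% and 3.48% of the tested regions. Chromosome 1 held 0, with 10.2% of the tested regions (507). With 15 calls these counts are small, and their spread over chromosomes was not tested. The distance to the next GR region was at least 19652 bp and had a median of 165320 bp, against 82637 bp for all tested regions. Of the 15, 0 had another GR region within 10 kb, against 13% of the tested regions. Of the 13 called regions outside the pCREB list, 1 had a pCREB region within 10 kb, against 21.2% of the tested regions outside the list, and the distances ran from 2075 to 1257700 bp (median 60209 bp). Both shares were lower than among the tested regions, but the called regions were few and the difference was not tested. Widths of 251 to 586 bp (median 368 bp) were like those of all tested regions (median 405 bp).

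The largest gathering of GR regions had negative fold changes that did not pass the test and varied widely between libraries of a group. Between 119684816 and 119807130 on chromosome 9, 28 GR regions stood within 122 kb, linked by gaps of at most 20 kb; the next largest such group had 5. None of the 28 overlapped the pCREB list, which has 0 regions in that span. They are 27 of the 35 regions outside the list with a log2 fold change below -1, and their median was -1.25, with a smallest unadjusted p of 0.357. Their summed signal was 5668, 87683, 37506 and 44308 CPM in vehicle libraries A to D and 30149, 31107, 340 and 10396 CPM in corticosterone libraries A to D. At least 26 of the 28 regions had a call in 6 of these 8 libraries, while vehicle A and corticosterone C, the exceptions, had 12 and 0. Corticosterone A, B and D lay above vehicle A, so the groups overlapped, and over the 16 GR libraries the highest sum was 268 times the lowest. In trained rats the sums were 875, 1931, 327 and 63986 CPM after vehicle and 3287, 24419, 412 and 14645 CPM after corticosterone, with no order by treatment. Without these 28 regions the median outside the pCREB list was 0.63. This locus was singled out after its values were seen.

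Peak calls followed the counts only in part. Of the 15 called regions, 12 had no call in any vehicle library, against 21.9% of the tested regions. A call in all 4 corticosterone libraries was present at 10, against 7.59% of the tested regions, and 3 had 2 such calls, against 29.5%. Calls and counts come from the same reads, so these shares are a description. Over the whole list, 321 regions had calls in at least 3 vehicle libraries and 1887 in at least 3 corticosterone libraries, but the number of regions with a call per library (1560 ± 1365 and 2601 ± 1464, SD, n = 4) differed within the spread (exact two-sided permutation test, p = 0.314). A region is listed only if at least 3 of 4 libraries of some condition carry a call, so the list is not independent of the signal. The calls of the trained rats alone would have listed 4620 of the tested regions, among them each of the 15. At the 15 this rests on the trained corticosterone libraries, all 4 of which had a call at each. No vehicle group had calls in 3 libraries at any of the 15. Each of the 15 is thus listed only through corticosterone libraries, where its signal is high. The other 348, listed through untrained libraries only, had a median log2 fold change of 0.24 and 0 calls by edgeR.

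The number of calls depended strongly on single libraries. Without vehicle A, B, C or D in turn, edgeR called 7, 225, 5 and 14 regions, and without corticosterone A, B, C or D it called 8, 13, 53 and 7. Without vehicle B, 210 were higher and 15 lower, and without corticosterone C, 52 were higher and 1 lower. Both of these fits kept each of the 15 regions. Leaving out a trained library gave 8, 20, 14 and 14 calls for vehicle and 9, 8, 9 and 9 for corticosterone. Over these 16 fits 5 regions kept the call each time: chr10:16942351-16942910, chr10:59884799-59885334, chr15:43782823-43783162, chr11:77467099-77467439 and chr15:37409719-37409969. Another 2, chr17:5971448-5971815 and chr11:31424285-31424773, lost it only without vehicle C, and the other 8 lost it in 4 to 12 of the fits, each without vehicle A, vehicle C, corticosterone A and corticosterone D. The 15 log2 fold changes stayed between 1.36 and 6.81. The upper end is that of chr15:37409719-37409969, whose only vehicle reads were 2 in vehicle C, so its size is poorly set. Without all 3 libraries with few peak calls, which leaves 2 vehicle and 3 corticosterone libraries, 40 regions were called, each higher, 34 of them outside the pCREB list, and 12 of the 15 were among them.

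**Figure D4:**
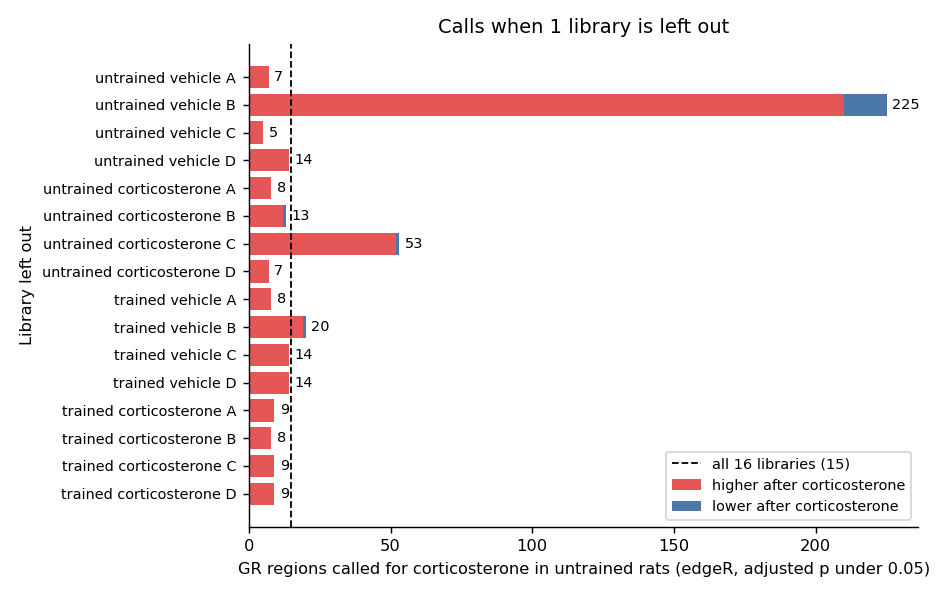
Number of GR regions called for corticosterone in untrained rats (horizontal axis; edgeR, adjusted p under 0.05) when the library named on the vertical axis is left out, in red for higher and blue for lower. The dashed line marks the 15 calls with all 16 libraries. The count runs from 5 without vehicle C to 225 without vehicle B.

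The same 15 regions were read in the trained rats. Trained vehicle libraries were labelled with lane 7 and trained corticosterone libraries with lane 8, so that lane and treatment cannot be told apart there either. The trained libraries are not independent of the choice of these regions: they shared the fit and its spread, and chr15:37409719-37409969, chr2:31133251-31133561 and chr17:46727874-46728139 are listed through trained calls alone. All 15 regions had a positive log2 fold change in trained rats, where 46.9% of all tested regions did. At an unadjusted p under 0.05 all 15 were higher (3.7% of the tested regions), and 4 passed the edgeR adjusted threshold over all regions (0.121%). Each of the 15 had a call in all 4 trained corticosterone libraries, as did 1824 tested regions. Of these 1824, 55.6% had a positive trained log2 fold change, 6.47% were higher at an unadjusted p under 0.05 and 0.329% passed. The 4 were chr10:59884799-59885334 (log2 fold change 4.20, adjusted p = 0.00313), chr10:16942351-16942910 (2.80, 0.00252), chr15:43782823-43783162 (2.67, 0.0032) and chr17:5971448-5971815 (2.53, 0.0212). The 1824 are not a like set, since 407 of them also had a call in all 4 trained vehicle libraries. Of the 185 tested regions with 4 trained corticosterone calls and no trained vehicle call, 9 were called in untrained rats. The median log2 fold change of the 185 was 0.26 in untrained and 0.65 in trained rats.

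At these regions the trained corticosterone libraries were more even than the untrained ones, while the vehicle libraries were about as uneven in both. The summed signal of the 15 regions was 1132, 1637, 712 and 763 CPM in trained vehicle libraries A to D and 3687, 4337, 3995 and 4012 CPM in trained corticosterone libraries A to D. In untrained rats the sums were 865, 1520, 501 and 1251 CPM and 5997, 4187, 2996 and 7605 CPM. At chr10:59884799-59885334, the trained vehicle libraries had 42.9, 31.5, 24.5 and 43.6 CPM and the trained corticosterone libraries 624, 710, 775 and 575 CPM. The 4 trained corticosterone libraries were thus near each other where the untrained ones ran from 521 to 1556 CPM. The groups of trained rats were apart at 12 of the 15 regions, against 3.34% of all tested regions.

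The fitted rise was smaller in trained than in untrained rats at 12 of the 15 regions, with a median log2 fold change of 1.81 against 2.57, a direction that selection in untrained rats favours. The difference itself, tested as a training by corticosterone interaction, passed the edgeR threshold at 0 of the 4968 regions (0%), and 184 had an unadjusted p under 0.05, among them 0 of the 15. At the 15 the differences ran from -1.76 to 0.17 with a median SE of 0.63, so that only large differences could have been seen. Each group had its own lane, so that the interaction cannot be told apart from lane. Just outside the threshold, chr3:162584796-162585036 had 48.8, 0, 55.6 and 52.1 against 137, 93.7, 192 and 182 CPM in untrained rats, and 129, 105, 73.6 and 76.3 against 83.2, 73, 92.4 and 92.2 CPM in trained rats. Its interaction had an unadjusted p of 0.00176, and its edgeR adjusted p is among those that did not pass.

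**Figure D5:**
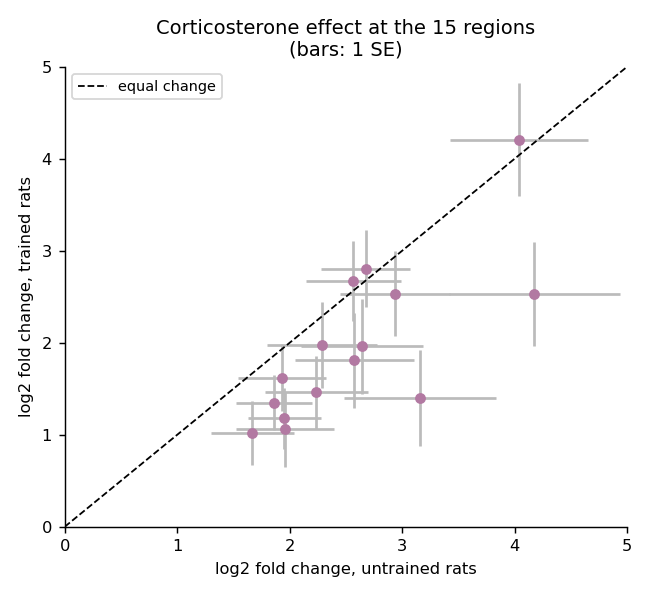
Log2 fold change of corticosterone over vehicle at the 15 called regions in untrained rats (horizontal axis) and trained rats (vertical axis); points are regions and bars are 1 SE from edgeR. All 15 points are above 0 in trained rats, from 1.02 to 4.20, and 12 lie below the line of equal change.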

How the data were processed

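Chromatin of rat hippocampus was immunoprecipitated for GR and pCREB and sequenced as single reads of 51 bp and 65 bp after 15 cycles of PCR, per the labels' protocols. The submitters' processing notes name HTSeq 0.6.1-1, bedtools 2.26.0, BWA 0.7.10 and MACS2 2.1.1.20160309, and build rn6; for their settings no source used here was found. For each region and library the authors deposited an unnormalized count of reads, per the file headers and the whole-number values. Count columns were matched to GR libraries by condition number and letter in rows of the GR list, and the matching peak calls of each region were used for the checks above. Input samples were not used here.

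The test was edgeR 4.0.16 in R 4.3.3 (robust quasi-likelihood fit, TMM, filterByExpr by condition) in a model of 4 groups over all 16 GR libraries, with contrasts for untrained rats, trained rats and their difference and Benjamini-Hochberg adjustment over 4968 regions. DESeq2 1.42.0 and other scalings, filters and sets of libraries were alternatives. SE were derived from the fold change and F statistic. CPM are relative to TMM-scaled reads in tested regions, and medians use log2(CPM + 1). Overlaps used GenomicRanges 1.54.1 and at least 1 bp. Reads in GR regions were 55254 to 139482 per untrained library. Untrained libraries of a group differed beyond sampling noise (chi-square per degree of freedom 2.2 or more), so none was a duplicate. The edgeR test was checked on simulated counts.

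Named are the regions past the threshold, the 5 next in order of p, the 3 lower regions of smallest p, up to 5 called by DESeq2 alone and the 5 highest in vehicle. The comparison, region groups and tests were chosen with earlier results of these data known.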

Additional observations from a re-analysis of the deposited data

Results flagged for a closer look

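A library stood far from the other 3 of its group in 7 of the 64 groups of 4 values examined. The reference rate is about 1 in 20, but these groups include low counts at regions chosen by their contrast. No excess over that rate is therefore read from the 7. Vehicle D had 104 CPM at chr17:5971448-5971815, against 23.8 to 31.8 CPM in the other vehicle libraries, and the call there held without it. Vehicle C had 15.9 CPM, or 2 reads, at chr15:37409719-37409969, where the other 3 vehicle libraries had 0. Corticosterone C had 253 CPM at chr8:48415896-48416281, against 480 to 521 CPM in the other corticosterone libraries. At chr3:162584796-162585036, vehicle B had 0 CPM, against 48.8 to 55.6 CPM, from 0 reads against 4, 7 and 5. A count of 0 allows up to 3 reads, which are 71.2 CPM in vehicle B. Counting error thus covers this gap and that at chr15:37409719-37409969.

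Corticosterone B, the treated library with few peak calls, accounted for 3 of the 7. It had 125 CPM at chr15:23494441-23494751, against 50.9 to 52.3 CPM in the other corticosterone libraries. At chr7:144015886-144017606 it had 47926 CPM, against 488 to 6107 CPM. Its mitochondrial share was 22.9% of reads, against 8.88% to 10.6%.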

How the results depend on the processing

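The 15 calls became 24 with DESeq2, 41 with total-count scaling, 7 with TMM from pCREB-overlapping regions, 40 without the 3 libraries with few peak calls, and 7 at an adjusted p under 0.01. They became 0 with only the 8 untrained libraries, and 0 with only the 5 of these that had more calls (578 at an unadjusted p under 0.05), a set chosen after seeing the data. Leaving out 1 library gave 5 to 225 calls for untrained rats and 3 to 9 passing in trained rats among the 15, where the full fit gave 4; total-count scaling gave 8. Counts of regions with all 4 corticosterone libraries above were 116 with total-count scaling, and below 38 with it and 71 without mitochondrial regions, against 70 and 109. Values at chr7:144015886-144017606 reversed, from -0.22 to 1.26 without vehicle D (range over single libraries left out -2.39 to 1.26), 0.16 without corticosterone A, 0.21 without corticosterone C and 0.06 without corticosterone D; the cause was not tested.

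With the replicate letter as a block the count was 46 (45 higher, 1 lower), 8 of the 15 passed in trained rats, and in the 8 untrained libraries alone the block gave 2 calls. Libraries of the same letter correlated at -0.17, 0.06, 0.39 and 0.03 (A to D), and 1 of 4 vehicle and 2 of 4 corticosterone libraries correlated best with their own letter, so that the letters were not taken to pair pools. Some regions did follow the letters. At chrUn.302:5823-7238 libraries B and D were the higher pair of each group, and the block moved the log2 fold change from -1.17 to -0.27. What libraries of a letter share was not tested. Depth limits most the vehicle values, of which 49 of 60 at the called regions were under 10 reads.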

Other observations

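The highest GR signal outside mitochondrial regions in vehicle libraries lay mostly on unplaced contigs, and it was spread unevenly over the libraries of each group. At chrUn.302:5823-7238 the values were 7094, 67069, 2789 and 49331 CPM in vehicle libraries A to D and 7505, 19193, 9852 and 19418 CPM in corticosterone libraries A to D. Libraries B and D were the higher pair of each group. Trained rats had 8842, 37962, 5342 and 44372 CPM after vehicle and 4877, 29631, 2645 and 11961 CPM after corticosterone, again with B and D higher. The regions chrUn.51:1-655 and chrUn.284:960-1627 had 4656, 40849, 1796 and 26604 CPM and 5473, 17052, 2440 and 11098 CPM in the vehicle libraries. At chr7:144015886-144017606, vehicle D had 48007 CPM and corticosterone B 47926 CPM, against 488 to 15033 CPM in the other 6 untrained libraries. By contrast chr19:56337681-56338520 was even, with 9787 ± 511 CPM after vehicle and 8414 ± 1017 CPM after corticosterone (SD, n = 4; log2 fold change -0.22, edgeR adjusted p = 0.873). Together these 5 regions took 2.91%, 11.4%, 2.06% and 12.4% of the reads of vehicle libraries A to D and 2.87%, 7.6%, 3.4% and 4.81% of those of corticosterone libraries A to D.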
